A study of Mus musculus with 12 samples.

Results

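The MHC class II genes and their machinery were followed across 4 Mo-Mac fractions of allergic mouse skin, with 3 bulk RNA-seq libraries per fraction. The 10 genes were taken by symbol from a table of 37775 genes: *H2-Aa*, *H2-Ab1*, *H2-Eb1*, *H2-DMa*, *H2-DMb1*, *H2-DMb2*, *H2-Oa*, *H2-Ob*, *Cd74* and *Ciita*. All 10 were present in the table and all 10 passed the expression filter, as did 22118 genes in all. The cells came from WT BALB/c mice with IgE-CAI, a model of skin allergy in which mice receive 300 µg of TNP-specific IgE intravenously and 10 µg of TNP-conjugated ovalbumin in the ear skin. Every fraction shared this strain, genotype and treatment and was sorted on day 5 after the challenge, so that no fraction stands for untreated skin. The labels name the fractions Classical mono, Early CMDM, Late CMDM and Resident-like. In the study's methods Classical mono are Ly6ChiPD-L2lo cells and Early CMDM Ly6ChiPD-L2hi cells, whereas Late CMDM are Ly6CloPD-L2hi cells and Resident-like Ly6CloPD-L2lo cells. CMDM stands for a macrophage derived from classical monocytes, and Mo-Macs were gated as CD11b+ F4/80+ cells with CD45 and without Ly6G or Siglec-F. MHC class II was not among these sorting markers. By the study's methods the mice were males aged 7 to 12 weeks. Whether libraries of a fraction came from separate mice is not given in the sources used here, so the p-values measure only the spread between these libraries.

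MHC class II molecules present peptides from endosomes to CD4+ T cells and are characteristic of dendritic cells, B cells and activated macrophages. An α and a β chain assemble on the invariant chain, encoded by *Cd74*, whose remnant is later removed from the peptide groove with the help of the DM heterodimer, while the DO heterodimer restrains DM. Transcription of these genes depends on *Ciita*, a coactivator without DNA binding of its own, which is recruited by the RFX, CREB and NF-Y factors bound to the X and Y boxes of their promoters.

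The total counts ranged from 12537178 to 19844113 per library. CPM are counts divided by the scaled library total, per 1e6. The level that 0 counts in a library would still allow, 3 counts, corresponded to 0.151 to 0.239 per 1e6 of the unscaled library total. This limit covers counting error only. CPM values are scaled by the TMM method, which takes most genes as unchanged, and comparisons were made with the quasi-likelihood test of edgeR on all 12 libraries, with Benjamini-Hochberg adjustment over the 22118 genes and a threshold of 0.05.

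The early CMDM libraries stood apart in their content of keratinocyte transcripts. Fibroblast transcripts were high in both early CMDMs and classical monocytes, with 6 markers summing to 2988 to 4205 and 3254 to 5588 CPM. Late CMDMs had 478 to 499 CPM of these and resident-like macrophages 276 to 358 CPM. The summed level of 6 keratinocyte markers was 17096 to 27284 CPM in early CMDMs and 1871 to 4050 CPM in the other fractions. Of 10 genes used by all leukocytes, early CMDMs had a summed level of 1089 to 1746 CPM and late CMDMs of 2397 to 2750 CPM, below the 4309 to 4625 CPM of classical monocytes and the 4013 to 4133 CPM of resident-like macrophages. In these bulk samples fewer leukocytes and less RNA per leukocyte cannot be told apart. Each comparison was therefore also made with every library scaled by those 10 leukocyte genes, whose own regulation between the fractions was not tested. This shifted the median log2 fold change of all genes by 1.74 in early CMDMs versus classical monocytes, by -0.96 in late versus early CMDMs and by 0.78 in late CMDMs versus classical monocytes. The shifts in resident-like macrophages were -0.65 versus late CMDMs, 0.13 versus classical monocytes and -1.61 versus early CMDMs.

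The promoters are shown first, since the X and Y boxes are what the class II genes are known to share. RefSeq promoter windows of GRCm38.p6, from 250 bases before to 50 bases after a gene start, were held for 7 of the 10 genes, in 8 windows. They were searched on both strands for the letters ATTGG, the core of the Y box, and for AACNNNTG, letters found in X boxes, followed after 15 to 25 bases by ATTGG. Both patterns, which share no bases with each other, were chosen after the sequences had been seen. ATTGG was held by 7 of the 8 windows and by 37.4% of all 32851 windows. The spaced pair was held by 4 of the 8 windows, those of *H2-Eb1*, *H2-DMb1*, *H2-DMb2* and *H2-Ob*, and by 0.374% of all windows. The stretch around the pair is printed 5′ to 3′ on the strand of the gene, with both patterns in capitals.
H2-Eb1 (chr17:34305763-34305822, plus strand): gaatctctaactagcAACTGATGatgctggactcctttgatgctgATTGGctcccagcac
H2-DMb1 (chr17:34153085-34153144, plus strand): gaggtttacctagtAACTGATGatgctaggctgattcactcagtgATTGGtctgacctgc
H2-DMb2 (chr17:34145114-34145173, plus strand): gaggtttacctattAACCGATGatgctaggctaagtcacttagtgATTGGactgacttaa
H2-Ob (chr17:34238803-34238862, plus strand): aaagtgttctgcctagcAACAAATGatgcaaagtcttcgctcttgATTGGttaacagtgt
For comparison, *H2-Aa* and *H2-Oa* held ATTGG 48 and 43 bases before the start without the upstream letters, and only ATTGG is in capitals.
H2-Aa (chr17:34287857-34287916, minus strand): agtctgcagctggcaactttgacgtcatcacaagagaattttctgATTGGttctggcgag
H2-Oa (chr17:34092291-34092350, plus strand): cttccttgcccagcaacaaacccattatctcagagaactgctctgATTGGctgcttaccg
The gap between the patterns was 22 bases in *H2-Eb1*, 23 in *H2-DMb1* and *H2-DMb2* and 20 in *H2-Ob*. A match of letters is a description of the sequence and no measurement of binding.

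The chains of the peptide-presenting molecules were highest in resident-like macrophages, next in classical monocytes and lowest in the CMDM fractions on the TMM scale. *H2-Aa* (chromosome 17, 34282744 to 34287823), the α chain of I-A, was at 12318, 12776 and 14054 CPM in resident-like macrophages, while classical monocytes had 4385, 4099 and 5633 CPM. Its level was 1445, 1495 and 1652 CPM in early CMDMs, and late CMDMs had 1964, 1951 and 1488 CPM. The resident-like libraries lay above all others, the classical monocyte libraries came next, and the CMDM fractions overlapped at the bottom. *H2-Ab1* (chromosome 17, 34257689 to 34269419), the β chain of I-A, was at 10863, 10842 and 11747 CPM in resident-like macrophages, while classical monocytes had 3434, 3270 and 4788 CPM. Early CMDM libraries read 1188, 1235 and 1380 CPM, and late CMDM libraries 1594, 1555 and 1148 CPM. This was the same order with the same overlap. *H2-Eb1* (chromosome 17, 34305867 to 34316674), the β chain of I-E, was at 6518, 6308 and 6471 CPM in resident-like macrophages, while classical monocytes had 1686, 1591 and 2313 CPM. Early CMDMs had 619, 656 and 711 CPM of *H2-Eb1* and late CMDMs 855, 889 and 646 CPM. Resident-like macrophages exceeded late CMDMs 7.25-fold for *H2-Aa*, 7.79-fold for *H2-Ab1* and 8.08-fold for *H2-Eb1*, that is by 2.86 ± 0.15, 2.96 ± 0.17 and 3.01 ± 0.16 on the log2 scale (± SE, n = 3 libraries per fraction). The adjusted p-values of edgeR were 2.07e-09, 3.48e-09 and 1.99e-09.

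The partner of *H2-Eb1*, the I-E α chain gene *H2-Ea*, was no member but is needed for the I-E molecule. It is annotated as a polymorphic pseudogene in GENCODE M21, which follows C57BL/6, while BALB/c mice carry a working copy. *H2-Ea* was counted at 8972 to 10258 CPM in resident-like macrophages, 2520 to 3788 CPM in classical monocytes, 955 to 1108 CPM in early CMDMs, and late CMDMs had 957 to 1323 CPM. The log2 fold change between resident-like macrophages and late CMDMs was 3.02 ± 0.16 (adjusted p = 2.64e-09, edgeR), next to 3.01 for *H2-Eb1*.

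*Cd74*, the invariant chain, was the most abundant of the 10 genes in all 12 libraries. It was at 32647, 31606 and 33150 CPM in resident-like macrophages, whereas classical monocytes had 9607, 8642 and 12298 CPM. Early CMDMs had 3640, 3620 and 4015 CPM and late CMDMs 5092, 5225 and 3844 CPM. The late CMDM libraries overlapped with the early ones, whereas resident-like macrophages exceeded late CMDMs 6.88-fold (log2 fold change 2.78 ± 0.15, adjusted p = 3.45e-09, edgeR). *Cd74* alone took 2.99% ± 0.10 of all counts in resident-like macrophages, 1.05% ± 0.18 in classical monocytes, 0.387% ± 0.020 in early CMDMs and 0.477% ± 0.079 in late CMDMs (SD, n = 3). The 10 genes together took 5.82% to 6.22% of the counts of a resident-like library, 1.90% to 2.64% of a classical monocyte library, 0.746% to 0.818% of an early CMDM library and 0.744% to 1.02% of a late CMDM library.

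*Ciita* (chromosome 16, 10480059 to 10528418), the coactivator of the class II genes, was expressed at a much lower level in the same order of fractions. It was at 143, 147 and 139 CPM in resident-like macrophages, whereas classical monocytes had 46.8, 50.4 and 61.6 CPM. Early CMDMs had 18.4, 16.4 and 18.6 CPM and late CMDMs 26.7, 22.6 and 17.2 CPM. No resident-like library came near another fraction, and the late CMDM libraries again overlapped with those of early CMDMs. The log2 fold change of *Ciita* was 2.69 ± 0.14 in resident-like macrophages versus late CMDMs and -1.57 ± 0.14 in early CMDMs versus classical monocytes (adjusted p = 2.17e-09 and 1.78e-07, edgeR). The latter became 0.17 ± 0.19 when libraries were scaled by the leukocyte genes.

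**Figure D1:**
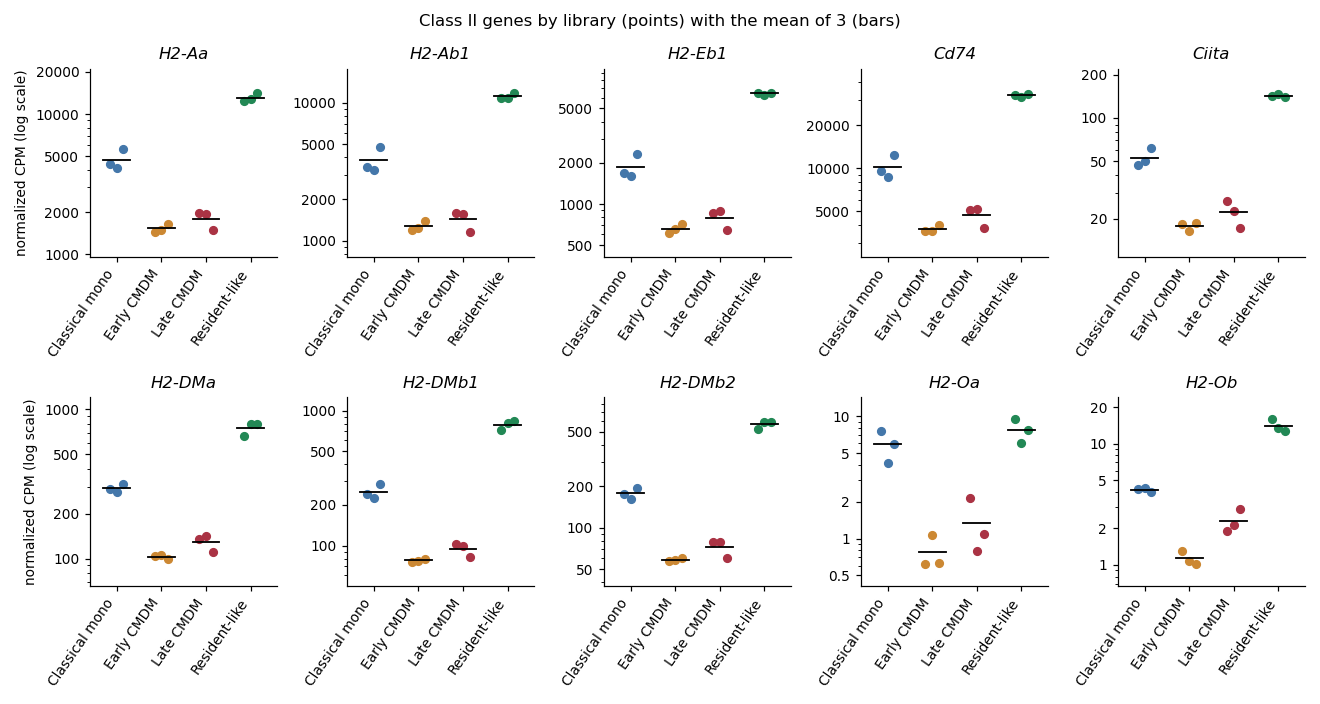
Normalized CPM of the 10 class II genes on log axes, with 1 panel per gene, 1 point per library and a bar at the mean of the 3 libraries of a fraction. The resident-like points lie above all other points in every panel but that of H2-Oa, where they overlap with classical monocytes.

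The DM genes, whose products load peptides, moved with the chains. *H2-DMa* (chromosome 17, 34119541 to 34139101) was at 668, 795 and 802 CPM in resident-like macrophages, while classical monocytes had 291, 280 and 316 CPM. Early CMDMs had 104, 105 and 99.0 CPM and late CMDMs 136, 143 and 110 CPM, without overlap between any of the fractions. *H2-DMb1* (chromosome 17, 34153072 to 34160230) had 712, 814 and 833 CPM in resident-like macrophages against 240, 225 and 287 CPM in classical monocytes. Early CMDMs had 75.8, 76.8 and 79.8 CPM and late CMDMs 103, 98.4 and 82.6 CPM. *H2-DMb2* (chromosome 17, 34143307 to 34151555) ranged from 528 to 593 CPM in resident-like macrophages, from 162 to 195 CPM in classical monocytes, from 56.8 to 59.8 CPM in early CMDMs and from 60.3 to 79.1 CPM in late CMDMs. Both β chain genes thus kept the fractions apart in the same order. They are close copies of each other. In their longest GENCODE M21 transcripts, 27.2% of the 50-base windows of *H2-DMb1* and 29.5% of those of *H2-DMb2* also occurred in transcripts of another gene, mostly each other, so the split of reads between them is uncertain. No 50-base window of the other 8 genes was shared with another gene.

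The DO genes, whose products restrain DM and are best known from B cells, were the scarcest of the 10. *H2-Ob* (chromosome 17, 34238903 to 34254414) was at 16.0, 13.5 and 12.7 CPM in resident-like macrophages, whereas classical monocytes had 4.25, 4.34 and 3.96 CPM. Early CMDMs had 1.30, 1.07 and 1.01 CPM and late CMDMs 1.91, 2.13 and 2.90 CPM. Its 4 fractions did not overlap, and late CMDMs were above early CMDMs 2.05-fold (log2 fold change 1.03 ± 0.23, adjusted p = 0.00237, edgeR), a difference that shrank to 0.08 ± 0.30 with leukocyte scaling. *H2-Oa* (chromosome 17, 34092340 to 34095234) departed from the other 9 genes. It was at 9.49, 6.01 and 7.77 CPM in resident-like macrophages, while classical monocytes had 7.57, 4.12 and 5.97 CPM, so these fractions overlapped. Its log2 fold change between them was 0.40 ± 0.26 (adjusted p = 0.32, edgeR). In early CMDMs *H2-Oa* was down to 0.619, 1.07 and 0.633 CPM, which are 10, 17 and 10 counts, and in late CMDMs it read 2.15, 0.790 and 1.08 CPM. The fall from classical monocytes to early CMDMs, 7.51-fold (log2 fold change -2.91 ± 0.35, adjusted p = 5.44e-06, edgeR), was the one such fall among the 10 genes that leukocyte scaling left past the threshold, at -1.18 ± 0.38 (adjusted p = 0.00505). The 6 B cell markers summed to 22.0 to 29.9 CPM in classical monocytes, 23.4 to 29.9 in early CMDMs, 14.3 to 17.1 in late CMDMs and 12.8 to 15.2 in resident-like macrophages. Of the 3 that passed the filter none was called higher in resident-like macrophages than in late CMDMs with TMM scaling (12.7% of all tested genes were). *Ebf1* was called lower (15.4% were), at -0.96, while the other 2 were at 0.13 and 0.33. Versus early CMDMs 1 of the 3 was called higher and 1 lower (range -2.51 to 1.15), as were 21.4% and 25.1% of all tested genes. With leukocyte scaling none was higher and 2 were lower there (89.8% were lower). *Cd79b* and *Ms4a1* were at means of 5.66 and 4.36 CPM in resident-like macrophages. *Pax5*, a B cell factor, had at most 4 counts in each of the 12 libraries.

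Levels of different genes were compared per kilobase of the longest transcript. In resident-like macrophages *Cd74* led with 23027 CPM per kb, followed by *H2-Aa* with 11568 and *H2-Ab1* with 9200 CPM per kb. *H2-Eb1* had 3854, *H2-DMb1* 560, *H2-DMb2* 385 and *H2-DMa* 376 CPM per kb. *Ciita* had 23.8, *H2-Oa* 7.13 and *H2-Ob* 5.26 CPM per kb. Class II genes are highly polymorphic, and reads of BALB/c mice were mapped to the reference RNA of another haplotype, so that levels between genes may carry a mapping bias. Whether they do was not tested. All 12 libraries share 1 strain.

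**Figure D2:**
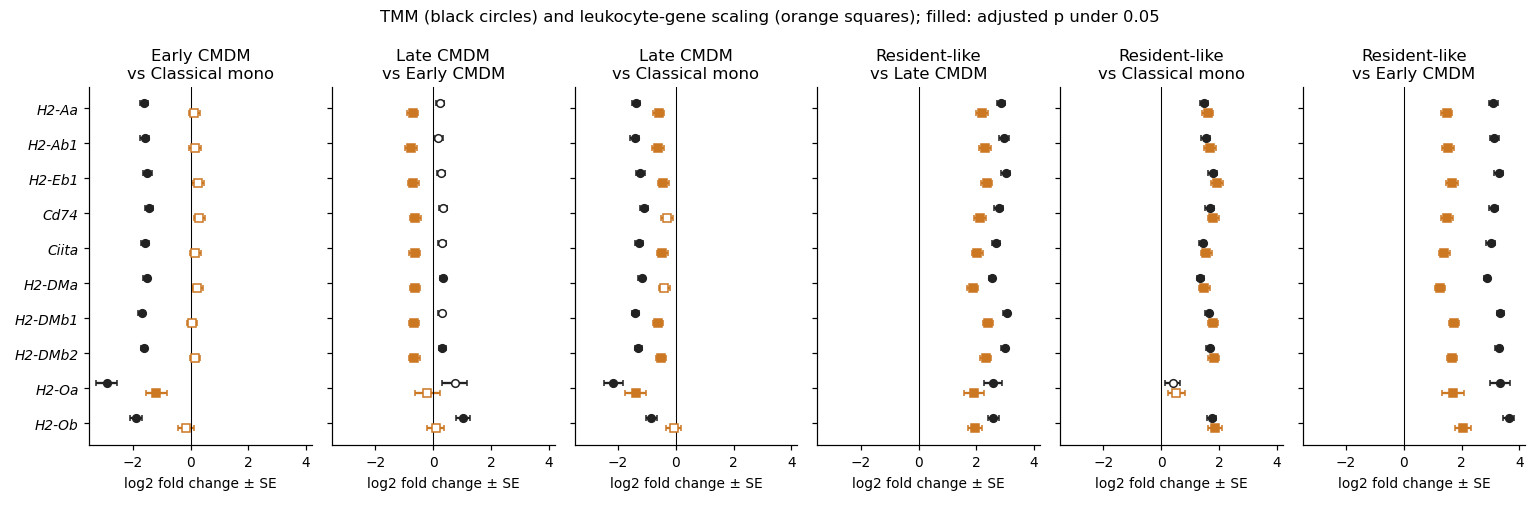
Log2 fold changes ± SE of the 10 genes in 6 comparisons, with TMM scaling as black circles and leukocyte-gene scaling as orange squares, filled where the adjusted p is under 0.05. The comparisons with resident-like macrophages stay above 0 under both scalings, whereas the negative TMM values of early CMDMs versus classical monocytes turn slightly positive for 8 genes with leukocyte scaling, and those of late versus early CMDMs turn from positive to negative for 9.

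Resident-like macrophages had more of these transcripts than each other fraction. Of the 10 genes, 10 were called higher than in late CMDMs, where 12.7% of all tested genes were called higher. The median log2 fold change was 2.82 (range 2.54 to 3.06), beside a median of 0.00 over all tested genes. Against early CMDMs 10 of 10 were called higher (21.4% of all genes), with a median of 3.21. Against classical monocytes 9 of 10 were called higher (10.8% of all genes), with a median of 1.60 and values from 1.35 for *H2-DMa* to 1.79 for *H2-Eb1* among those called. With leukocyte scaling 10 were called higher than in late CMDMs (2.7% of all genes were), 10 higher than in early CMDMs (1.36%) and 9 higher than in classical monocytes (9.5%). The medians were then 2.16, 1.60 and 1.73. The 3 comparisons share the resident-like libraries and are not independent. Without overlap between libraries, 10 of 10 genes were higher than in late CMDMs (20.8% of all tested genes were), 10 of 10 were higher than in early CMDMs (26.9%) and 9 of 10 higher than in classical monocytes (17.1%).

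Between classical monocytes and early CMDMs all 10 genes were called lower in early CMDMs with TMM scaling, where 20.6% of all tested genes were called lower, but with leukocyte scaling 1 gene, *H2-Oa*, was, as were 2.08% of all genes. The libraries of both fractions did not overlap for 10 of 10 genes on the TMM scale (25.8% of all genes were lower in this way). The TMM values lay between -2.91 for *H2-Oa* and -1.44 for *Cd74*, with a median of -1.60. With leukocyte scaling the 8 genes other than *H2-Oa* and *H2-Ob* lay between 0.06 for *H2-DMb1* and 0.31 for *Cd74*, and *H2-Ob* was at -0.16. The 10 leukocyte genes themselves were all called lower in early CMDMs with TMM scaling, with a median log2 fold change of -1.61, beside -1.60 for the class II genes. They did not fall alike, at -2.67 to -1.25.

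Late and early CMDMs lay closer to each other. 3 of the 10 genes, *H2-DMa*, *H2-DMb2* and *H2-Ob*, were called higher in late CMDMs with TMM scaling (14.4% of all tested genes were), at 0.34 ± 0.11, 0.31 ± 0.11 and 1.03 ± 0.23. With leukocyte scaling the direction turned, and the 8 genes other than *H2-Oa* and *H2-Ob* were called lower in late CMDMs, at -0.77 to -0.62, where 72.5% of all tested genes were called lower too. On the TMM scale 4 of the 10 genes were higher in late CMDMs without overlap between libraries, compared with 23.1% of all genes. Leaving out late CMDM replicate 3, the lowest of its fraction in 8 of 10 genes, raised the TMM count to 6. The count was 5 without classical monocyte replicate 3 and 1 without any one of the early CMDM libraries or without late CMDM replicate 1 or 2. *H2-Ob* was called in each of the 12 fits that left out 1 library.

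Late CMDMs had less of these transcripts than classical monocytes. 10 of 10 genes were called lower with TMM scaling, compared with 17.5% of all tested genes, and 10 of 10 did not overlap, compared with 23.9%. The log2 fold changes were -2.17 for *H2-Oa* to -0.85 for *H2-Ob* and a median of -1.28. With leukocyte scaling all 10 stayed negative with a median of -0.49, and 7 were called lower, as were 5.09% of all genes. The 3 that were not were *Cd74* at -0.31 ± 0.20, *H2-DMa* at -0.40 ± 0.19 and *H2-Ob* at -0.08 ± 0.26.

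Since a ratio of 2 genes within a library does not depend on how the library is scaled, 7 ratios were examined for differences between fractions. The exact permutation test used all 15400 divisions of the 12 libraries into 4 groups of 3, with adjustment over the 7 ratios. It counted the divisions with at least the observed spread between groups, and so has no direction. 2 ratios passed. *H2-Eb1* to *H2-Ab1* was 49.1%, 48.6% and 48.3% in classical monocytes, 52.1%, 53.1% and 51.5% in early CMDMs, 53.6%, 57.1% and 56.3% in late CMDMs, with a mean of 57.7% in resident-like macrophages, whose lowest library had 55.1% (p = 0.000584, adjusted p = 0.00205, exact permutation test). Classical monocytes therefore had the least *H2-Eb1* per *H2-Ab1*, and the late CMDM and resident-like ranges overlapped. *Cd74* to *H2-Ab1* was 257% to 280% in classical monocytes, 291% to 306% in early CMDMs, 319% to 336% in late CMDMs and 282% to 301% in resident-like macrophages (p = 0.000519, adjusted p = 0.00205, exact permutation test). Late CMDMs had the most invariant chain per I-A β chain. These differences were small beside those of the levels. The highest and the lowest fraction differed 1.19-fold in the first ratio and 1.24-fold in the second, while *H2-Ab1* itself differed 8.79-fold between resident-like macrophages and early CMDMs.

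The other 5 ratios did not pass. *H2-Aa* to *H2-Ab1*, the chains of I-A, spanned 1.08-fold between fraction means, from 117% in resident-like macrophages to 126% in late CMDMs (adjusted p = 0.11, exact permutation test). *H2-DMb2* to *H2-DMb1* spanned 1.07-fold (71.2% to 76.4%, adjusted p = 0.11), *Ciita* to *H2-Ab1* from 1.28% to 1.54% (adjusted p = 0.13) and *H2-DMa* to *H2-Ab1* 1.35-fold (6.75% to 9.11%, adjusted p = 0.11) in the exact permutation test. *H2-Ob* to *H2-DMb1* spanned 1.65-fold, with the highest mean, 2.45%, in late CMDMs and the lowest, 1.49%, in early CMDMs (adjusted p = 0.11, exact permutation test), but its late CMDM libraries alone ran from 1.90% to 3.55%.

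**Figure D3:**
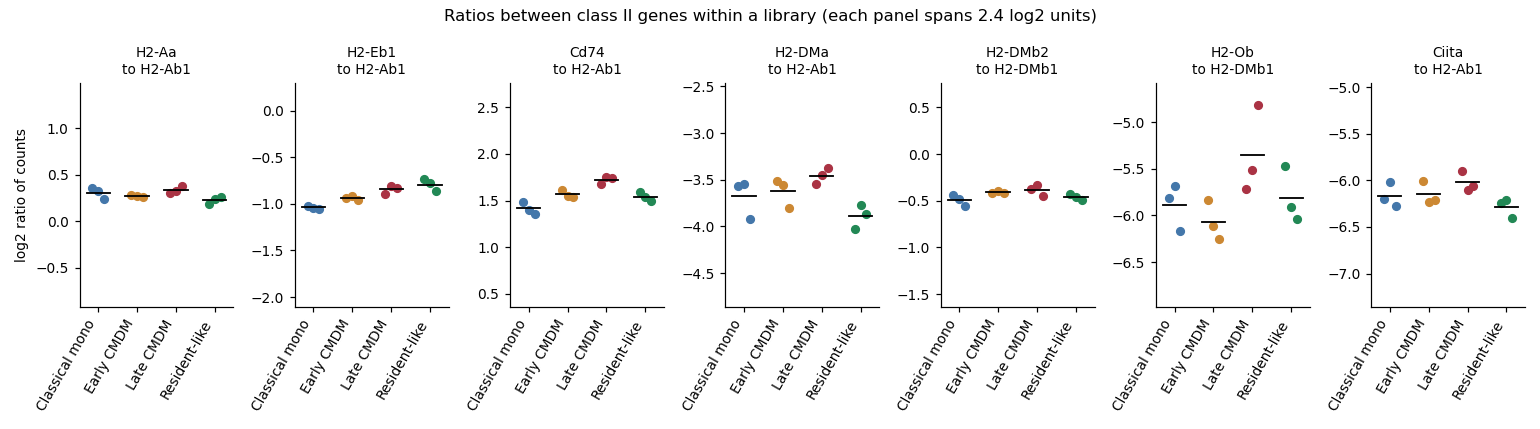
Log2 ratios of the counts of gene pairs within a library, with 1 point per library, bars at the fraction means and the same span of 2.4 log2 units on every vertical axis. The means of H2-Eb1 to H2-Ab1 and of Cd74 to H2-Ab1 differ by 0.25 and 0.31 between the lowest and the highest fraction, and the widest scatter is in H2-Ob to H2-DMb1.

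In some fractions 1 replicate was the highest in most of the genes. Classical monocyte replicate 3 was the highest of its fraction in 8 of the 10 genes and replicate 2 the lowest in 8. Early CMDM replicate 3 was the highest in 7, and late CMDM replicate 3 the lowest in 8. Among resident-like libraries the order was mixed, with replicates 1, 2 and 3 the highest in 3, 1 and 6 genes and the lowest in 4, 4 and 2. The coefficient of variation of *H2-Ab1* was 4.63% in resident-like macrophages and 7.90% in early CMDMs, below the 21.8% of classical monocytes and the 17.3% of late CMDMs. Over the 12 libraries, the Pearson correlation of log2 CPM with *H2-Ab1* was 0.999 for *H2-Aa*, 0.996 for *Ciita*, 0.947 for *H2-Ob* and 0.897 for *H2-Oa*. These values describe 12 points that fall into 4 fractions and share library, sort and scaling. By the same measure, the tested genes outside the fixed lists most like *H2-Ab1* were *Tmem176b* (0.989), *Chrm1* (0.988), *Tmem176a* and *Malt1* (0.987 each), *Nr4a3* (0.986), *Rogdi* (0.985), *Sfpq* (0.983), *Lipe* (0.979), and *Rhof* and *Ywhah* (0.978 each). *Tmem176b* had a mean of 493 CPM in resident-like macrophages, 227 in classical monocytes, 76.1 in early CMDMs and 103 in late CMDMs.

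All members but *Cd74* and *Ciita* lie with *H2-Ea* in 1 region of chromosome 17 together with other genes, which allowed neighbours to be compared. *Psmb9* and *Psmb8*, subunits of the immunoproteasome, and *Tap1* and *Tap2*, which carry peptides into the endoplasmic reticulum for class I molecules, lie between *H2-DMb1* and *H2-Ob*. *Brd2*, a bromodomain protein gene, lies between *H2-Oa* and *H2-DMa* and overlaps the latter on the other strand. The study set its mapping to 1 read orientation relative to the reference RNA. In resident-like macrophages versus late CMDMs these 5 genes had log2 fold changes of 0.32 to 0.53 with TMM scaling, of which 4 were called, where 12.7% of all tested genes were called higher. With leukocyte scaling their median was -0.31 and none was called, where 2.7% of all tested genes were called higher and 54.0% lower. *Psmb8*, the highest of them, was at 0.53 ± 0.09, while *H2-DMb1* and *H2-Ob* on either side were at 3.06 ± 0.12 and 2.59 ± 0.18. *H2-Eb2*, a class II β chain gene of low expression, had a mean of 2.57 CPM in resident-like macrophages and of 0.829 CPM in late CMDMs (log2 fold change 1.61 ± 0.37, adjusted p = 0.00389, edgeR). With leukocyte scaling *H2-Eb2* was at 0.97 ± 0.43 and was not called (adjusted p = 0.0553, edgeR).

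**Figure D4:**
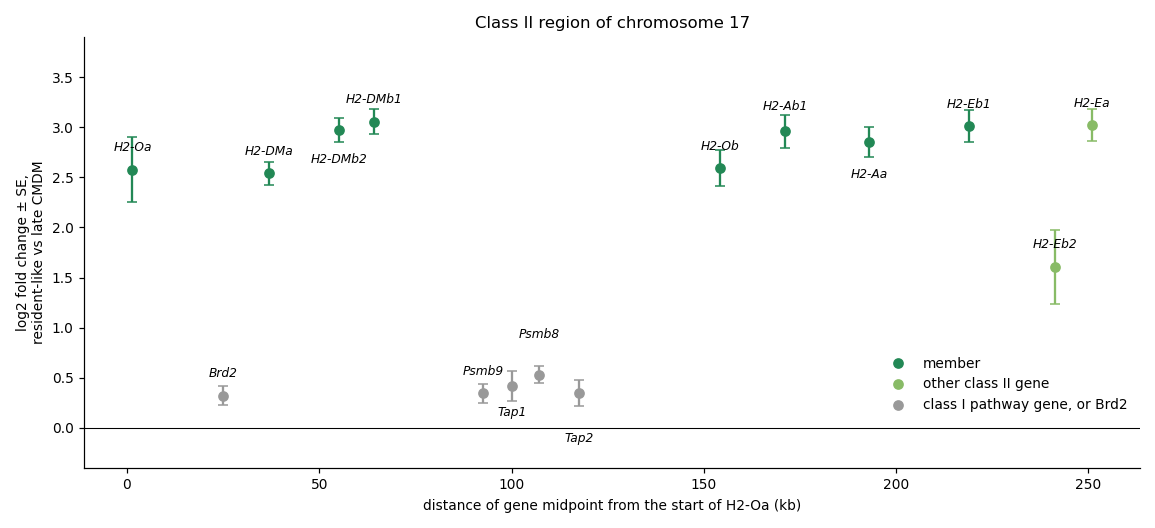
Log2 fold change ± SE of resident-like macrophages versus late CMDMs with TMM scaling, by distance of the gene midpoint from the start of H2-Oa in kb on chromosome 17. The class II genes of the list lie at 2.54 to 3.06, and the genes of the class I pathway and Brd2 between them at 0.32 to 0.53.

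The genes of class I presentation, which serves CD8+ T cells, differed less. *H2-K1* and *H2-D1*, class I heavy chains, were at means of 1394 and 1755 CPM in resident-like macrophages, compared with 1252 and 1500 CPM in late CMDMs, with log2 fold changes of 0.16 and 0.23 that were not called. *B2m*, their light chain, was called lower in resident-like macrophages (-0.41 ± 0.13, adjusted p = 0.0256, edgeR), and with leukocyte scaling all 5 genes of the list were. Of all tested genes 15.4% were called lower in this comparison with TMM scaling and 54.0% with leukocyte scaling. *Nlrc5*, a relative of *Ciita* that acts on class I genes, had a mean of 22.0 CPM in resident-like macrophages, next to 22.1 CPM in late CMDMs. The median of the 5 genes of this list, which includes *Tapbp*, was -0.01 in this comparison and 0.05 versus classical monocytes, beside 2.82 and 1.60 for the class II genes.

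The factors that bind the X and Y boxes varied less than the class II genes on the TMM scale. Of *Rfx5*, *Rfxap*, *Rfxank*, *Nfya*, *Nfyb*, *Nfyc* and *Creb1*, 2 were called higher in resident-like macrophages than in late CMDMs with TMM scaling (12.7% of all tested genes were), *Creb1* at 0.57 ± 0.09 and *Rfx5* at 0.47 ± 0.16. The median of the 7 was 0.08, and it turned to -0.57 with leukocyte scaling, where none was called higher and 4 were called lower, as were 54.0% of all tested genes. With that scaling early CMDMs had higher calls than classical monocytes for all 7, at a median of 1.51, as were 90.8% of all tested genes. All 7 were called lower in resident-like macrophages than in early CMDMs, at a median of -1.52, as were 89.8% of all tested genes. Versus classical monocytes *Nfya* was called higher in resident-like macrophages at 0.52 ± 0.09 and *Rfxap* lower at -0.57 ± 0.13, and the median was -0.02. *Rfx5* itself was at 11.1 CPM in resident-like macrophages, 9.3 in classical monocytes, 10.4 in early CMDMs and 7.9 in late CMDMs.

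Among 9 genes upstream of *Ciita*, 4 were called higher in resident-like macrophages than in late CMDMs with TMM scaling (12.7% of all tested genes were). With leukocyte scaling 1 was called higher and 5 lower, where 2.7% of all tested genes were called higher and 54.0% lower. *Irf4*, an interferon regulatory factor of dendritic cells and alternatively activated macrophages, changed most. It was at 111, 116 and 107 CPM in resident-like macrophages, whereas classical monocytes had 56.9, 44.7 and 53.5 CPM. Early CMDMs had 20.8, 20.4 and 20.3 CPM and late CMDMs 52.9, 50.2 and 37.1 CPM. The log2 fold change of *Irf4* was 1.25 ± 0.12 versus late CMDMs and 1.10 ± 0.12 versus classical monocytes (adjusted p = 1.71e-06 and 4.57e-06, edgeR). It was the gene of the list that was also called higher than in late CMDMs with leukocyte scaling, at 0.59 ± 0.19 (adjusted p = 0.0104, edgeR). *Spi1*, which encodes the myeloid factor PU.1, was at 411 to 442 CPM in resident-like macrophages, above 267 to 310 CPM in late CMDMs (log2 fold change 0.56 ± 0.14, adjusted p = 0.00651, edgeR), but was at -0.09 ± 0.15 with leukocyte scaling. *Irf8*, a factor of monocytes and some dendritic cells, followed another order, with 391 CPM in classical monocytes, 140 in resident-like macrophages, 134 in late CMDMs and 87.8 in early CMDMs. *Ifngr1*, a receptor chain of the interferon-γ pathway that induces *Ciita*, also had its highest mean in classical monocytes, at 382 CPM, and was at 165 CPM in resident-like macrophages.

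Genes of endosomal processing, among them proteases that supply peptides to class II molecules, had their highest sum in late CMDMs on the TMM scale. Of 7 genes of endosomal processing, 5 were called higher in late CMDMs than in classical monocytes with TMM scaling and 7 with leukocyte scaling. Of all tested genes 18.1% and 62.5% were. Versus early CMDMs all 7 were called higher in late CMDMs with TMM scaling, at a median of 1.13 (14.4% of all tested genes were). With leukocyte scaling 1 of the 7 was, at a median of 0.22 (0.71% were). From late CMDMs to resident-like macrophages 4 were called lower and 1 higher with TMM scaling, and 6 lower with leukocyte scaling, where the shares of all tested genes called lower were 15.4% and 54.0%. *Ctsl*, cathepsin L, was at 4137, 3592 and 4976 CPM in late CMDMs, while resident-like macrophages had 1144, 870 and 1081 CPM, 4.11-fold less (log2 fold change -2.04 ± 0.21, adjusted p = 4.85e-06, edgeR). *Ctsb*, *Ctsd* and *Lgmn*, further endosomal proteases, were called lower in resident-like macrophages at -0.93, -0.86 and -1.03. *Ctss*, cathepsin S, which trims the invariant chain in antigen-presenting cells, was at a mean of 2079 CPM in late CMDMs, with 1616 CPM in resident-like macrophages (-0.36 ± 0.19, adjusted p = 0.17, edgeR). *Cst3*, cystatin C, an inhibitor of these proteases, went the way of the class II genes, with 3556, 4349 and 3978 CPM in resident-like macrophages, above 1958, 2054 and 1617 CPM in late CMDMs (1.08 ± 0.14, adjusted p = 2.56e-05, edgeR), but at 0.42 ± 0.20 it was not called with leukocyte scaling (adjusted p = 0.0735, edgeR).

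Genes of class II turnover and sorting did not share 1 pattern. Of 6, 2 were called higher and 2 lower in resident-like macrophages than in late CMDMs with TMM scaling, and 1 higher and 3 lower with leukocyte scaling. Of all tested genes 12.7% were called higher and 15.4% lower with TMM scaling, and 2.7% higher and 54.0% lower with leukocyte scaling. *Marchf1*, a ubiquitin ligase that removes class II from the surface, was at 45.9 CPM in resident-like macrophages, next to 39.3 in late CMDMs (0.22 ± 0.19, adjusted p = 0.44, edgeR). *Marchf8*, a related ligase, was called lower in resident-like macrophages (-0.90 ± 0.16), and *Cd9*, a tetraspanin, was called higher with TMM scaling (0.93 ± 0.15) but not with leukocyte scaling (0.28 ± 0.23).

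**Figure D5:**
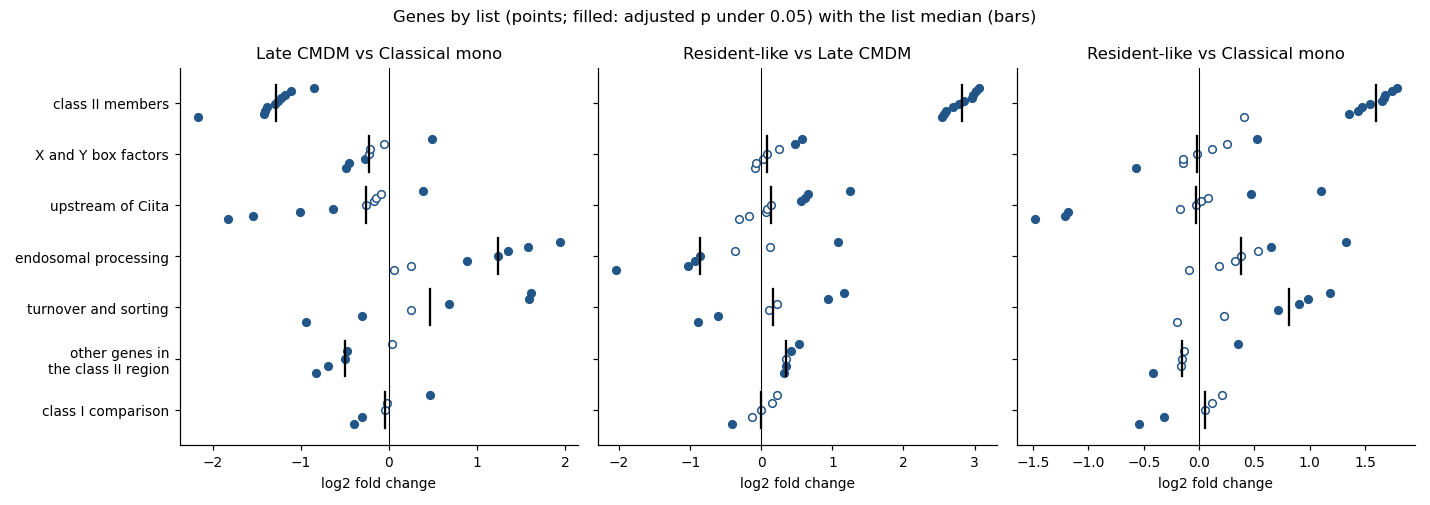
Log2 fold changes with TMM scaling of the 10 class II genes and of 6 further lists in 3 comparisons, with 1 point per gene, filled where the adjusted p is under 0.05, and a bar at the list median. The class II medians of -1.28, 2.82 and 1.60 stand beside medians of -0.50, 0.35 and -0.16 for other genes of the class II region. With leukocyte scaling, not drawn here, the class II medians are -0.49, 2.16 and 1.73 and those of the other genes 0.28, -0.31 and -0.02.

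The sorted fractions were checked against lists of cell type markers, which did not hold the gene of PD-L2. The 6 monocyte markers summed to 2377 to 2589 CPM in classical monocytes and 543 to 701 CPM in early CMDMs. They summed to 754 to 881 CPM in late CMDMs and 906 to 1027 CPM in resident-like macrophages. *Ly6c2*, 1 of them, was at 380 to 607 CPM in classical monocytes and 15.9 to 53.6 CPM in the other fractions. Early CMDMs, sorted as Ly6Chi cells, had 44.1 to 53.6 CPM of it on the TMM scale, on which their leukocyte genes were lower too. Versus classical monocytes 5 of the 6 monocyte markers were called lower in early CMDMs with TMM scaling (20.6% of all tested genes were). With leukocyte scaling 3 were called lower and 2 higher, at a median of -0.74, where 2.08% and 90.8% of all tested genes were. Resident-like macrophages had 1 of the 6 called higher and 1 lower than late CMDMs with TMM scaling (12.7% and 15.4% were). The 9 macrophage markers summed to 5277 to 5856 CPM in late CMDMs and 4564 to 4995 CPM in resident-like macrophages, above the 1664 to 2458 CPM of classical monocytes and the 1752 to 2903 CPM of early CMDMs. With TMM scaling 6 of the 9 were called higher in resident-like macrophages than in early CMDMs (21.4% of all tested genes were). This direction turned with leukocyte scaling to none higher and 6 lower, where 89.8% of all tested genes were lower. With leukocyte scaling, early CMDMs were called above classical monocytes, and resident-like macrophages below late CMDMs, in all 9. Of all tested genes 90.8% and 54.0% were called in these directions too. With TMM scaling all 3 Langerhans cell markers were called higher in resident-like macrophages than in late CMDMs, and 2 with leukocyte scaling. Of all tested genes 12.7% and 2.7% were. The summed level of the 3 was 906 to 1189 CPM in resident-like macrophages, 109 to 150 in late CMDMs, 181 to 256 in early CMDMs and at least 62.9, with a mean of 79.7, in classical monocytes. *Cd207*, which encodes langerin, was at 679, 859 and 920 CPM in resident-like macrophages, compared with 37.2 to 42.9 CPM in late CMDMs. Of 8 markers of conventional dendritic cells 5 were called higher than in late CMDMs with TMM scaling and 4 with leukocyte scaling, beside the same 12.7% and 2.7% of all tested genes. The sum of the 8 was 695 to 771 CPM in resident-like macrophages, 156 to 228 in late CMDMs, 86.9 to 90.7 in early CMDMs and 281 to 389 in classical monocytes. Versus classical monocytes all 3 Langerhans cell markers were called higher with TMM scaling, whereas of the 8 markers of conventional dendritic cells 2 were called higher and 3 lower, with a median of 0.00. Of all tested genes 10.8% were called higher and 12.9% lower. *Flt3*, a receptor of dendritic cells and their precursors, had its highest mean in classical monocytes at 68.9 CPM, with 27.0 CPM in resident-like macrophages. *Cd209a* and *Itgax* accounted for most of the sum of the 8 in resident-like macrophages, at means of 555 and 82.4 CPM, while *Clec9a* was at 4 to 10 counts per resident-like library and *Xcr1* at 3.67 to 4.61 CPM. In classical monocytes the 5 markers of plasmacytoid dendritic cells included *Siglech* at 209 to 395 CPM, compared with 19.1 to 23.7 CPM in resident-like macrophages. The sum of the 5 was 421 to 499 CPM in resident-like macrophages, 517 to 573 in late CMDMs, 1818 to 2488 in early CMDMs and 1113 to 1701 in classical monocytes. Versus classical monocytes, however, early CMDMs had 4 of the 5 called lower with TMM scaling, at a median of -3.01, and 1 called higher, at 2.83. Of all tested genes 20.6% were called lower and 24.2% higher. Of these 5, 4 were called lower in resident-like macrophages than in classical monocytes, with a median of -2.63, beside 12.9% of all tested genes. The 6 fibroblast markers summed to 3254 to 5588 CPM in classical monocytes, 2988 to 4205 in early CMDMs, 478 to 499 in late CMDMs and 276 to 358 in resident-like macrophages. All 5 tested basophil and mast cell markers were called higher in resident-like macrophages than in late CMDMs with TMM scaling. With leukocyte scaling 3 were, and versus classical monocytes 1 was with TMM scaling. Of all tested genes 12.7%, 2.7% and 10.8% were. The list summed to 32.9 to 53.2 CPM in resident-like macrophages and 8.02 to 15.4 in late CMDMs. The 5 T cell markers summed to 87.8 to 126 CPM in classical monocytes and 25.1 to 35.6 in resident-like macrophages. The part of such cells and transcripts in the class II levels was not tested.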

How the data were processed

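The deposited values were raw counts per gene symbol, which the authors made by trimming with cutadapt 4.1, mapping to reference RNA of GRCm38 with Bowtie2 2.4.5, in 1 read orientation only, and counting the reads of each gene. Every column was used. The study's methods name TCC for its own tests. Here edgeR 4.0.16 in R 4.3.3 was used, with TMM, filterByExpr by fraction and robust quasi-likelihood fits of all 12 libraries, and DESeq2 1.42.0 as an alternative. Counts of replicate pairs differed beyond sampling noise, with chi-square values over degrees of freedom from 4.24 to 21.9, and each library was kept as 1 replicate. The log2 CPM of the correlations used a prior count of 2, and the ratios a pseudocount of 0.5. The genes named are the 10 members, fixed lists of their pathway and of cell markers, and the 10 genes most correlated with *H2-Ab1*. Members and lists were chosen with earlier results of these data known. Positions and transcript lengths follow GENCODE M21, promoters RefSeq on GRCm38.p6. Alternatives were RLE factors, library size only, TMM without genes over 1% of counts, scaling by 10 leukocyte genes, no filter, 10 counts in every library, a replicate block, the 6 libraries compared alone and leaving out each library.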

Additional observations from a re-analysis of the deposited data

How the results depend on the processing

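Apart from leukocyte scaling, the calls of the 10 genes changed only in late versus early CMDMs. Of 480 values in the 8 other alternatives that kept all libraries of a comparison, 472 kept their call, 8 gained or lost it and 0 turned direction, and of 720 values with 1 library left out, 702 kept it and 0 turned. With leukocyte scaling, early CMDMs versus classical monocytes had 1 gene called instead of 10, and 8 values turned: *H2-Aa* 0.13, *H2-Ab1* 0.15, *H2-Eb1* 0.26, *H2-DMa* 0.24, *H2-DMb1* 0.056, *H2-DMb2* 0.14, *Cd74* 0.31 and *Ciita* 0.17. In late versus early CMDMs 8 genes were called in the opposite direction and 9 values turned: *H2-Aa* -0.72, *H2-Ab1* -0.77, *H2-Eb1* -0.69, *H2-DMa* -0.63, *H2-DMb1* -0.67, *H2-DMb2* -0.65, *H2-Oa* -0.21, *Cd74* -0.62 and *Ciita* -0.64. The scaling itself moved the median of all genes, by 1.74 and -0.96. With 1 library left out, the count of genes called in late versus early CMDMs ran from 1 to 6. The other counts stayed at 10, 10, 10, 9 and 10.

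The unadjusted p of the ratios, exact permutation test, ran from 0.00013 to 0.00188 for *H2-Eb1* to *H2-Ab1* and from 0.000325 to 0.00136 for *Cd74* to *H2-Ab1* with 1 library left out. The largest difference of fraction means then ran from 0.087 to 0.13 (log2) for *H2-Aa* to *H2-Ab1*, from 0.36 to 0.49 for *H2-DMa* to *H2-Ab1* and from 0.073 to 0.13 for *H2-DMb2* to *H2-DMb1*. These passed an unadjusted threshold of 0.05 without classical monocyte replicate 3 (*H2-Aa*, p = 0.00448, and *H2-DMa*, p = 0.021, exact permutation test), without early CMDM replicate 3 (*H2-DMa*, p = 0.046) or without classical monocyte replicate 1 or late CMDM replicate 3 (*H2-DMb2*, p = 0.0342 and 0.0176). The replicate numbers were not used to pair the libraries. Of 18 correlations of same-numbered libraries 4 were over 0.1 (-0.10 to 0.25). Libraries of different numbers were not correlated for reference, so these values do not decide whether the libraries were paired. With a replicate block the count in late versus early CMDMs was 2, and the differences of 0.43 in *H2-DMa* to *H2-Ab1* and of 0.10 in *H2-DMb2* to *H2-DMb1* passed, at an unadjusted p of 0.0365 and 0.0174 in the exact permutation test. The causes were not tested. With 10 to 17 counts per early CMDM library, *H2-Oa* is the gene most limited by depth.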
